A study of Mus musculus with 72 samples.

Results

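The RNA helicases of the DEAD-box (Ddx) and DEAH-box (Dhx) families were followed through the nucleus, the cytosol and the membrane fraction of mouse embryonic stem cells. Members were the protein-coding genes whose symbols start with Ddx or Dhx and a digit and that had, on average, 400 or more sequenced T positions in exons in nuclear libraries. Of 51 such genes, 50 passed, out of 51826 genes in the count files. Ddx60 was left out with a mean of 33.6 T positions, the lowest member was Dhx58 with 1701 and the highest was Ddx5 with 1022564. Besides these 51, 2 family genes were left out by the rule itself and are not reported here. The rule used depth only, and none of the differences described below.

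Cells of the line E14TG2a were grown in 2i and LIF, were given 4-thiouridine (4sU), a uridine analog that new RNA takes up, and were then split into a nuclear, a cytosolic and a membrane fraction beside an extract of whole cells. Alkylated 4sU pairs with G during reverse transcription, and the resulting T-to-C changes (T2C) in reads report RNA made in the labeling time. The poly(A)-selected libraries came from 6 independently passaged replicates, with 15, 20 and 30 min of labeling in replicates 1 and 2, 20, 40, 60 and 120 min in replicates 3 and 4, and 60 and 120 min in replicates 5 and 6. Every culture was labeled. The labels give 500 µM 4sU up to 40 min and 100 µM at 60 and 120 min. The study's methods put part of the longer labeling at the higher dose and name no replicate numbers. Labels and methods alone thus do not assign the dose, and it was not used as a term. The paper reports a T2C conversion rate that rises with time at the higher dose and stays level at the lower one. At 60 min this rate ran from 5.83% to 8.29% in replicates 3 and 4, and from 2.38% to 3.99% in replicates 5 and 6. At 120 min the ranges were 8.825% to 12.24% and 3.26% to 3.955%. The part of dose in the results was not tested. The 120 min libraries of replicates 3 and 4 were left out, on the reading that they are long labelings at the higher dose, which the study set aside, and this left 64 of 72 libraries, 16 per fraction. Labeling time and replicate pair were tied to each other except at 20 and 60 min, and cannot otherwise be told apart.

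DEAD-box and DEAH-box proteins share a helicase core of tandem domains that binds RNA and ATP. DEAD-box proteins open short duplexes locally or clamp RNA, whereas DEAH-box proteins move along a strand, and they drive the rearrangements of the spliceosome. Cells use the family at each step of an mRNA's life, from transcription and splicing through export to translation and decay, and in the assembly of ribosomes. The family is named after motif II of the core, which binds the magnesium of ATP and reads Asp-Glu-Ala-Asp in most DEAD-box proteins.

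The coding sequence around motif II is shown for the 6 members that the results return to, because it is the feature that defines the family and because it tells these transcripts apart. Each run has 30 bases of the coding strand in GRCm38, with the codons of motif II in capitals.
Ddx5: cttgtccttGATGAAGCTGATaggatgctt
Ddx17: cttgtgttgGATGAGGCTGACcggatgctt
Ddx3x: ctggtgttaGATGAAGCTGACcggatgtta
Ddx6: atagtgctaGATGAGGCAGATaaattgttg
Ddx21: gttgtcctgGATGAAGTCGACcagatgttg
Dhx9: gttattgtgGATGAAATTCATgaaagagat
The Ddx5 run lies in exon 7 at chr11:106785184-106785213 (minus strand), and the Ddx17 run in exon 7 at chr15:79538866-79538895 (minus strand). The Ddx3x run lies in exon 11 at chrX:13289399-13289428 (plus strand), the Ddx21 run in exon 6 at chr10:62591872-62591901 (minus strand) and the Dhx9 run in exon 14 at chr1:153468880-153468909 (minus strand). The Ddx6 run crosses a splice junction, with 15 bases in exon 7 at chr9:44626468-44626482 and 15 in exon 8 at chr9:44627638-44627652 (plus strand). The paralogs Ddx5 and Ddx17 shared 24 of 30 bases, Ddx17 and Ddx3x shared 25, and Ddx3x and Dhx9 shared 12. Read in frame anywhere in 1 coding sequence per gene, the letters DEAD were held by 28 members, Dhx29 among them (and by 0.75% of 21747 protein-coding genes), DEAH by 9 (0.34%), DEVD by 3 including Ddx21 (1.01%) and DEIH by 2 including Dhx9 (0.175%), and 8 members held none of the 4. Whether a match is motif II was not determined by position.

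Library depth ran from 13185351 to 52975732 reads on genes. All 8 embryonic stem cell markers were present in whole cells (3031 to 5091 when summed in the level unit defined below), whereas 0 of 4 primitive endoderm, 0 of 4 fibroblast feeder and 1 of 3 mesoderm markers reached 1, and 3 of 3 neural markers did at a summed 4.74 to 8.27. The part of cells of another type in the results was not tested. Of the nuclear markers, Malat1 was higher in the nucleus than in the cytosol by 2.75 ± 0.23 (log2 ± SE), and the membrane marker Hspa5 was higher in the membrane fraction than in the cytosol by 5.23 ± 0.21. Hspa5 was also higher in the nucleus than in the cytosol, by 3.28 ± 0.19, as were the other 3 markers of the membrane fraction, and the part of carried-over membrane RNA in nuclear levels was not tested. The nuclear markers Malat1 and Kcnq1ot1 were also higher in the membrane fraction than in the cytosol, by 1.51 ± 0.22 and 2.43 ± 0.23. Neat1 and Meg3 were not, with -0.57 ± 0.29 and -0.34 ± 0.31. The part of nuclear RNA in membrane levels, shares and intron counts was not tested. The library labelled whole cell, 60 min, replicate 6 had a median share of new RNA of 37.4% over all genes and the one labelled 120 min 17.5%, against 21.97% and 38.8% in replicate 5, so that these values go against the labelled order of times. Whole-cell shares enter no test here. In the library labelled whole cell, 60 min, replicate 5, the row Gm42418, which overlaps ribosomal RNA sequence, took 21.5% of reads, against a median of 3.50% over whole-cell libraries.

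Levels were taken as reads per kb of exon, scaled to the library's reads on genes (RPKM), which allows genes to be compared. In whole cells the median member had 19.4 RPKM, against 8.24 for the 10413 protein-coding genes with at least 1 RPKM, and 48 of 50 members reached 1. Ddx5, a cofactor of splicing and transcription, was the most abundant with 169.6 ± 23.8 (SD, n = 16), followed by the translation factor Ddx3x with 131.5 ± 26.3, which differed by less than the sum of their SDs. The spliceosomal Dhx16 followed with 82.7 ± 15.6, below Ddx3x by more than the sum of their SDs, and then the ribosome assembly factor Ddx18 with 66.4 ± 12.6, Ddx17 with 55.0 ± 11.2, the ribosome assembly factor Ddx56 with 45.7 ± 11.01 and Dhx9 with 45.0 ± 10.8, of which no neighbours differed by more than that sum. The germ cell helicases Ddx4 and Ddx25 were low with 3.66 ± 1.96 and 0.92 ± 0.39, and the RNA sensor Dhx58 was lowest with 0.62 ± 0.23. Some reads of Ddx18 could not be assigned, since 50.2% of the 75-base words of its transcript also occur in other genes. For the paralogs Ddx19a and Ddx19b this share was 27.5% and 22.5%, all of it with each other, and for Ddx5 14.4% with the gene Gm12183. Of 50 members, 42 shared no such word.

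**Figure D1:**
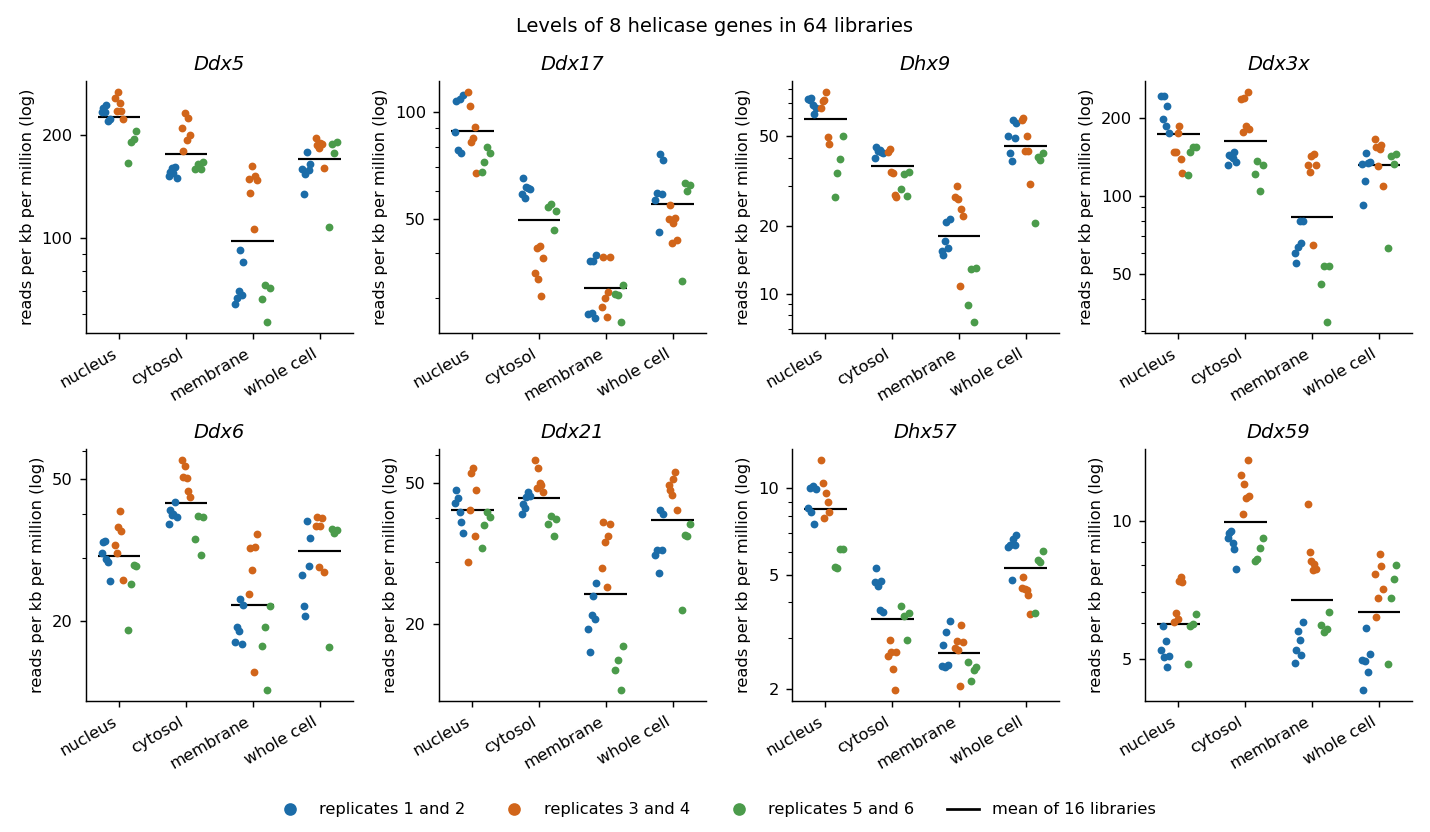
Levels of 8 helicase genes (RPKM, log axis) in 3 fractions and in whole cells. Each point is 1 of 64 libraries, colored by replicate pair, and each line is the mean of 16 libraries. Ddx17 and Dhx57 in the nucleus lie above all cytosolic libraries, Ddx59 lies below them, and Ddx5, Dhx9, Ddx3x, Ddx6 and Ddx21 overlap.

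Between nucleus and cytosol, the transcripts of the family went in both directions. Of 50 members, 16 were higher in the nucleus (42.5% of all 16093 genes tested were) and 11 in the cytosol (21.2%), and 23 were not called. The median difference of 0.29 (log2) was that of all genes, also 0.29. In bulk fractions, fewer cells that express a gene and less of its RNA per cell cannot be told apart, and each difference is relative to the other RNA of the fraction.

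Ddx17, which acts with Ddx5 in splicing, transcription and microRNA processing, had the largest difference of the best-known members in the main fit. Its level in nuclear libraries ran from 67.5 RPKM over a median of 83.6 to 114, and in cytosolic libraries from 30.4 over 53.3 to 65.5. All 16 nuclear libraries lay above all 16 cytosolic ones, and the difference was 0.81 ± 0.08 (log2 ± SE, edgeR adjusted p = 2.1e-13). Ddx5 had 165.6, 233 and 266 RPKM (lowest, median and highest) in the nucleus and 149.7, 163 and 231 in the cytosol. The libraries overlapped and the difference of 0.30 ± 0.11 was at the median of all genes. Dhx9, a transcription cofactor that also unwinds RNA paired at inverted repeats, had 26.8, 66.3 and 77.6 RPKM in the nucleus and 26.8, 37.2 and 44.4 in the cytosol, and was higher in the nucleus by 0.65 ± 0.14 despite this overlap.

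Other transcripts leaned to the cytosol. Ddx6, which holds mRNAs in P-bodies and promotes decapping, had 18.9, 30.4 and 40.9 RPKM in the nucleus and 30.6, 40.5 and 56.6 in the cytosol, a difference of -0.55 ± 0.11 (edgeR adjusted p = 1.2e-05) with overlapping libraries. The nucleolar Ddx21 had 30.0, 41.5 and 55.1 RPKM in the nucleus and 35.5, 45.9 and 58.0 in the cytosol, with a difference of -0.17 ± 0.12 that did not pass (adjusted p = 0.20). For Ddx3x, with 120.0, 165 and 244 RPKM in the nucleus and 104.6, 143 and 250.3 in the cytosol, the difference was 0.02 ± 0.16 (adjusted p = 0.89).

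The 5 members farthest to the nuclear side were Dhx57 (1.25 ± 0.10), the chromosome cohesion helicase Ddx11 (1.17 ± 0.10), the ribosome assembly factor Ddx51 (1.01 ± 0.08), the mitochondrial Dhx30 (0.95 ± 0.08) and Ddx43 (0.89 ± 0.16). Dhx57 had 5.29 to 12.5 RPKM in the nucleus and 1.98 to 5.27 in the cytosol, without overlap between the fractions. The 5 farthest to the cytosolic side were Ddx25 (-1.06 ± 0.20), Ddx59 (-0.79 ± 0.10), Dhx32 (-0.73 ± 0.10), the nuclear pore helicase Ddx19a (-0.70 ± 0.08) and Ddx4 (-0.70 ± 0.29). Ddx59 had 4.80 to 7.53 RPKM in the nucleus and 7.85 to 13.5 in the cytosol, again without overlap, whereas Ddx4 had 2.03 to 5.95 and 1.71 to 12.2, with wide overlap.

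By role, 2 of 3 splicing and transcription cofactors, 2 of 9 spliceosomal members and 5 of 16 ribosome biogenesis members were higher in the nucleus, beside 42.5% of all genes, and 2 of the latter were higher in the cytosol, beside 21.2%. The spliceosomal calls were those of Ddx46 and Ddx42, which were kept in 3 and 4 of 15 alternatives. Of the 3 mRNA export members 2 were higher in the cytosol, namely Ddx19a and Ddx19b, which share reads with each other, and Ddx39 had -0.32 ± 0.12. Among the 5 members of translation, storage and decay, Dhx34 (0.69 ± 0.12) and Dhx36 (0.69 ± 0.13) were higher in the nucleus and Ddx6 in the cytosol. The calls of Dhx34 and Dhx36 were kept in 8 and 7 of 15 alternatives, with lowest values of -0.07 and 0.20. The 2 RNA sensors were called in opposite directions, with Dhx58 higher in the nucleus (0.87 ± 0.19) and Ddx58 (RIG-I) in the cytosol (-0.58 ± 0.11).

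The count of calls moved with the scaling and with the replicate pair. Within replicates 1 and 2, 7 members were higher in the nucleus and 11 in the cytosol (33.6% and 30.5% of all genes), within replicates 3 and 4 the counts were 18 and 16 (46.4% and 24.5%), and within replicates 5 and 6 they were 5 and 8 (30.6% and 22.9%). Of all calls, 66.8% were higher in the nucleus, but 55.5% with upper-quartile factors, 52.7% with all 72 libraries, 52.4% with counts summed to 6 per fraction and 52.5% within replicates 1 and 2, as the median over all genes moved by up to 0.30. Calls kept in the main fit and all 15 alternatives were Dhx30, Ddx51 and Dhx57 for the nucleus and Ddx25, Ddx59, Dhx32 and Ddx19a for the cytosol. Relative to the median of all genes, 13 members lay on the nuclear side in every fit, Ddx17 and Dhx9 among them, and 19 on the cytosolic side. Neither the calls nor the sides kept in every fit were counted over all genes. Without replicates 2, 4 and 5 in turn, 10, 6 and 9 members were higher in the nucleus, beside 37.5%, 33.8% and 37.8% of all genes. In these fits Dhx9 fell below the threshold with 0.46, 0.33 and 0.49, as did Ddx17 without replicate 4 (0.50). Over all 15 alternatives the calls of Ddx17, Dhx9 and Ddx6 were kept in 11, 6 and 14. Without replicate 3, 5 members were higher in the cytosol, beside 18.6% of all genes, and Ddx6 (-0.46) and Ddx4 (-0.45) lost their calls. With the culture as a block the call of Ddx4 was lost as well (-0.44). Ddx3x, close to 0 over all libraries, was higher in the cytosol within replicates 3 and 4 (-0.64, edgeR adjusted p = 0.00062).

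**Figure D2:**
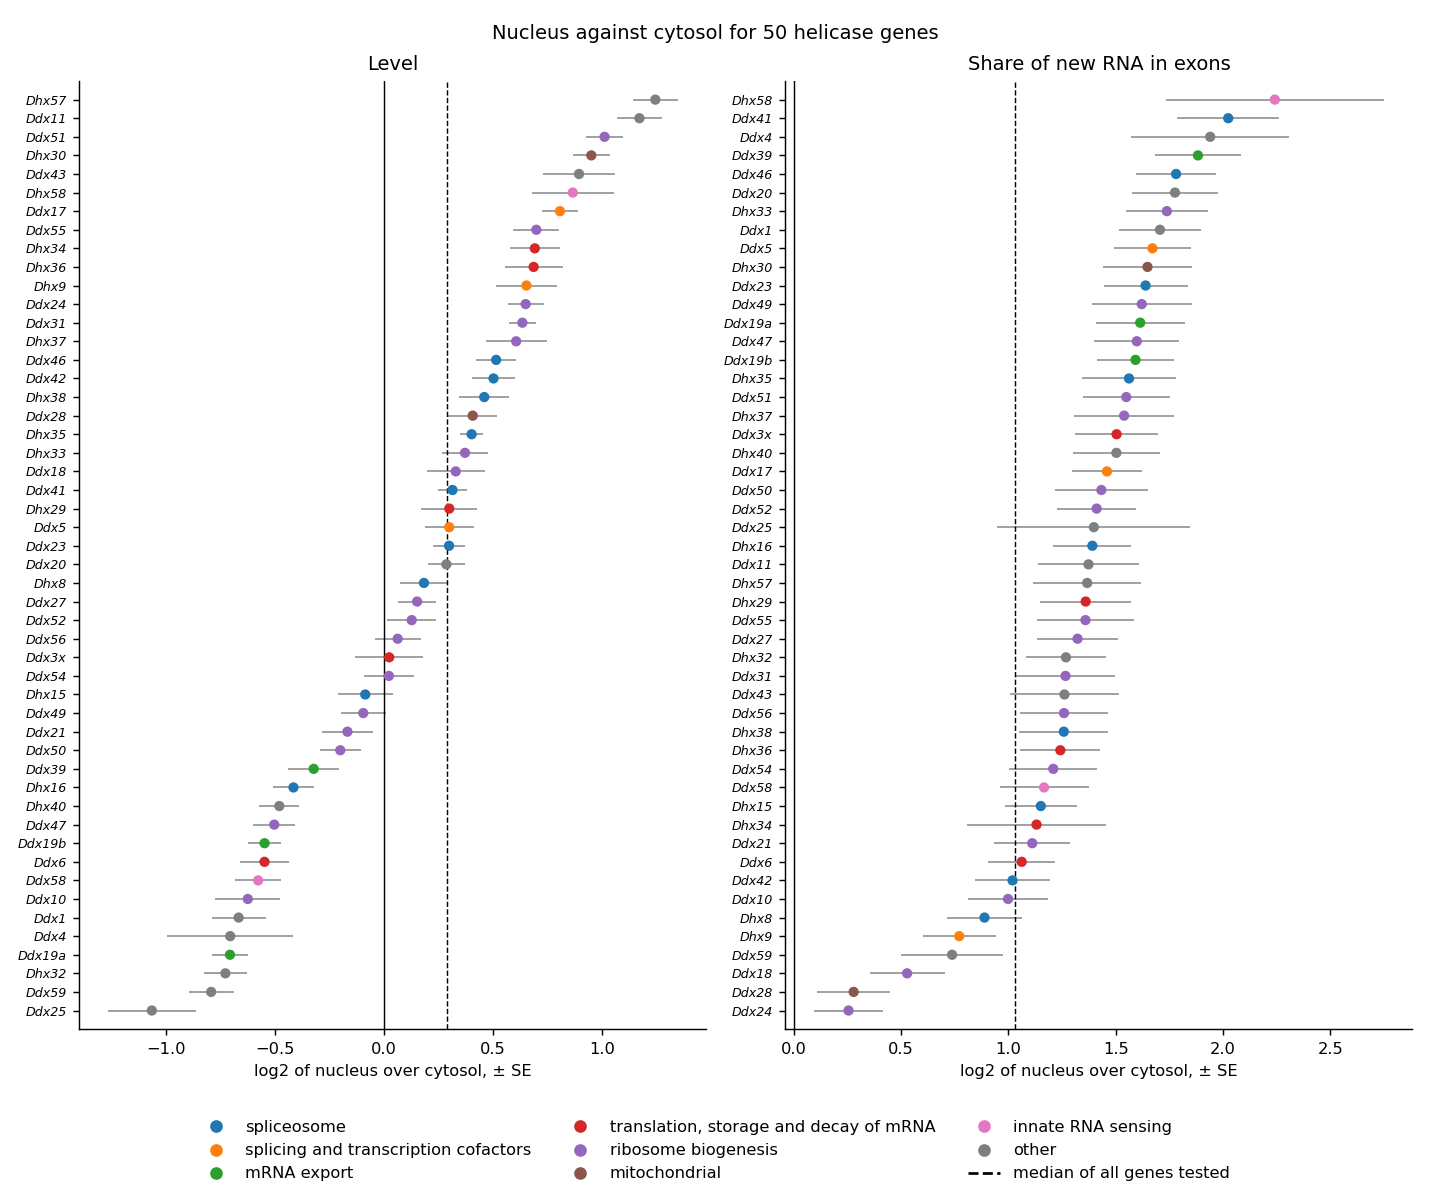
Differences between nucleus and cytosol for 50 helicase genes, as log2 of nucleus over cytosol ± SE, for the level (left) and for the share of new RNA in exons (right), with genes sorted by value and colored by role. The dashed line is the median of all genes tested (0.29 and 1.03), and levels spread on both sides of zero while all shares lie above it.

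Between the membrane fraction and the cytosol, only Ddx28, a mitochondrial ribosome assembly factor, was higher in the membrane fraction (0.54 ± 0.11, edgeR adjusted p = 2.8e-05), against 24.1% of all genes. It had 7.36, 9.56 and 19.2 RPKM (lowest, median and highest) in the membrane fraction and 7.73, 9.92 and 10.8 in the cytosol, and the libraries overlapped. Another 15 members were higher in the cytosol, against 12.9% of all genes. The lowest were Ddx4 (-0.78 ± 0.29), Ddx10 (-0.77 ± 0.15), Dhx9 (-0.72 ± 0.14), Ddx3x (-0.70 ± 0.16) and Ddx6 (-0.67 ± 0.11), and Ddx21 (-0.61 ± 0.12) and Ddx5 (-0.57 ± 0.11) were called as well. Ddx17 had -0.31 ± 0.08 and was not called. Next to Ddx28 at the upper end were the spliceosomal Ddx23 (0.14 ± 0.07), Ddx31 (0.02 ± 0.06), Dhx57 (-0.06 ± 0.10) and Ddx24 (-0.10 ± 0.08).

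The median member had -0.37 and the median gene -0.16. In the main fit and every alternative, 34 of 50 members lay below the median of all genes and 2, Ddx23 and Ddx28, above it. How many of all genes kept their side in every fit was not counted. Within replicate pairs 10, 10 and 33 members were higher in the cytosol and 0, 2 and 0 in the membrane fraction, in the order of the pairs. Of all genes, 10.4%, 10.8% and 27.8% were higher in the cytosol and 26.4%, 26.1% and 21.4% in the membrane fraction. With upper-quartile factors 39 members were higher in the cytosol, beside 38.95% of all genes. The part of all calls that were higher in the membrane fraction fell from 65.2% to 35.9%. The call of Ddx28 was lost in the fits without replicates 2, 3 and 5 (0.48, 0.42 and 0.45). Without replicate 5 the cytosolic calls rose to 24, beside 26.2% of all genes. Of the 16 calls the cytosolic call of Ddx10 alone was kept in every fit, which was not counted over all genes.

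To obtain the share of new RNA, T2C counts were divided by T counts and by the library's conversion rate. This rate ran from 2.07% at 15 min to 8.29% at 60 min in the libraries used. At 60 min it was 5.83% to 8.29% in replicates 3 and 4, and 2.38% to 3.99% in replicates 5 and 6. Shares count conversions on exons and introns of a gene separately, and no background was subtracted, so that shares near 1% at short times are not distinguished from sequencing error here. Some intron shares exceeded 100%, which the division by an estimated rate allows.

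Nuclear exons of the family held a larger share of new RNA than cytosolic exons. Of 50 members, 48 had a higher share of new RNA in nuclear than in cytosolic exons, as had 76.3% of 11865 genes, and the median difference was 1.38 against 1.03 (log2) over all genes. No member had a lower share in the nucleus, at the thresholds or at an unadjusted p under 0.05 with edgeR, and limma called none either, while 1.22% of genes did. In 21 members the nucleus lay above the cytosol in all 16 cultures, which was not counted over all genes.

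In Ddx5, nuclear exons had 3.14% and 5.75% new RNA in the 15 min libraries, 13.6% and 15.2% at 30 min, 12.5% and 12.9% at 40 min and 26.0% and 28.1% at 120 min. Cytosolic exons had 1.18% and 1.49%, 3.35% and 4.59%, 2.40% and 3.27%, and 22.1% and 24.2% at the same times. The nucleus was far above the cytosol up to 40 min (replicates 1 to 4) and close to it at 120 min (replicates 5 and 6). Over all conditions the difference was 1.67 ± 0.18 (log2 ± SE, edgeR adjusted p = 3.4e-13). Ddx17 kept its distance, with 47.3% and 50.9% in the nucleus and 28.8% and 29.3% in the cytosol at 120 min, and had 1.46 ± 0.16. Ddx3x had 5.77% and 11.2% in the nucleus and 1.201% and 1.81% in the cytosol at 15 min, but 32.6% and 33.9% and 29.9% and 34.6% at 120 min, with an overall difference of 1.504 ± 0.19. Dhx9 reached 13.8% and 14.4% in the cytosol at 40 min beside 16.04% and 16.4% in the nucleus, and its difference was 0.77 ± 0.17. Ddx6 had 1.06 ± 0.16 and Ddx21 1.11 ± 0.18. All 120 min values came from replicates 5 and 6, so that a change with time is not separated from replicate pair. At 60 min, the median member had 6.275% new RNA in cytosolic exons in replicates 3 and 4, and 15.3% in replicates 5 and 6. In nuclear exons it had 22.86% and 21.08%.

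The highest differences were those of Dhx58 (2.24 ± 0.51), the spliceosomal Ddx41 (2.02 ± 0.24), Ddx4 (1.94 ± 0.37), the mRNA export factor Ddx39 (1.88 ± 0.20) and Ddx46 (1.78 ± 0.19), of which Dhx58 and Ddx4 rest on few T2C counts and had shares of 0 in several libraries. Ddx41 had 28.8% and 29.5% in nuclear exons at 60 min in replicates 3 and 4, and 2.38% and 2.92% in cytosolic exons. At the other end, the ribosome assembly factor Ddx24 (0.26 ± 0.16, adjusted p = 0.14) and Ddx28 (0.28 ± 0.17, adjusted p = 0.12) were not called, and Ddx18 (0.53 ± 0.17), Ddx59 (0.74 ± 0.24) and Dhx9 were the lowest that passed. The call of Ddx18 was lost with the culture as a block (0.50) and without replicate 2, 3 or 4 (0.49, 0.32 and 0.42). Ddx24 had 1.42% and 2.03% in the nucleus at 15 min and 1.25% and 1.65% in the cytosol, and 31.1% and 34.6% beside 32.2% and 33.7% at 120 min.

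By role, all 9 spliceosomal members, all 3 cofactors, all 3 export members, all 5 members of translation, storage and decay and 15 of 16 ribosome biogenesis members were higher in the nucleus, with medians of 1.39, 1.46, 1.61, 1.24 and 1.34. In cytosolic exons at 120 min, the share of new RNA differed widely within the family. Ddx28 had 86.5% and 95.8% new RNA, the ribosome assembly factors Ddx55 69.0% and 73.7% and Dhx33 56.5% and 60.4%, and the SMN complex member Ddx20 66.0% and 67.6%. Ddx4 had 2.40% and 3.69%, Ddx25 3.96% and 6.50%, and Ddx1, a subunit of the tRNA ligase complex, 11.7% and 12.3%. The median member had 29.6% and the median gene 37.0%.

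**Figure D3:**
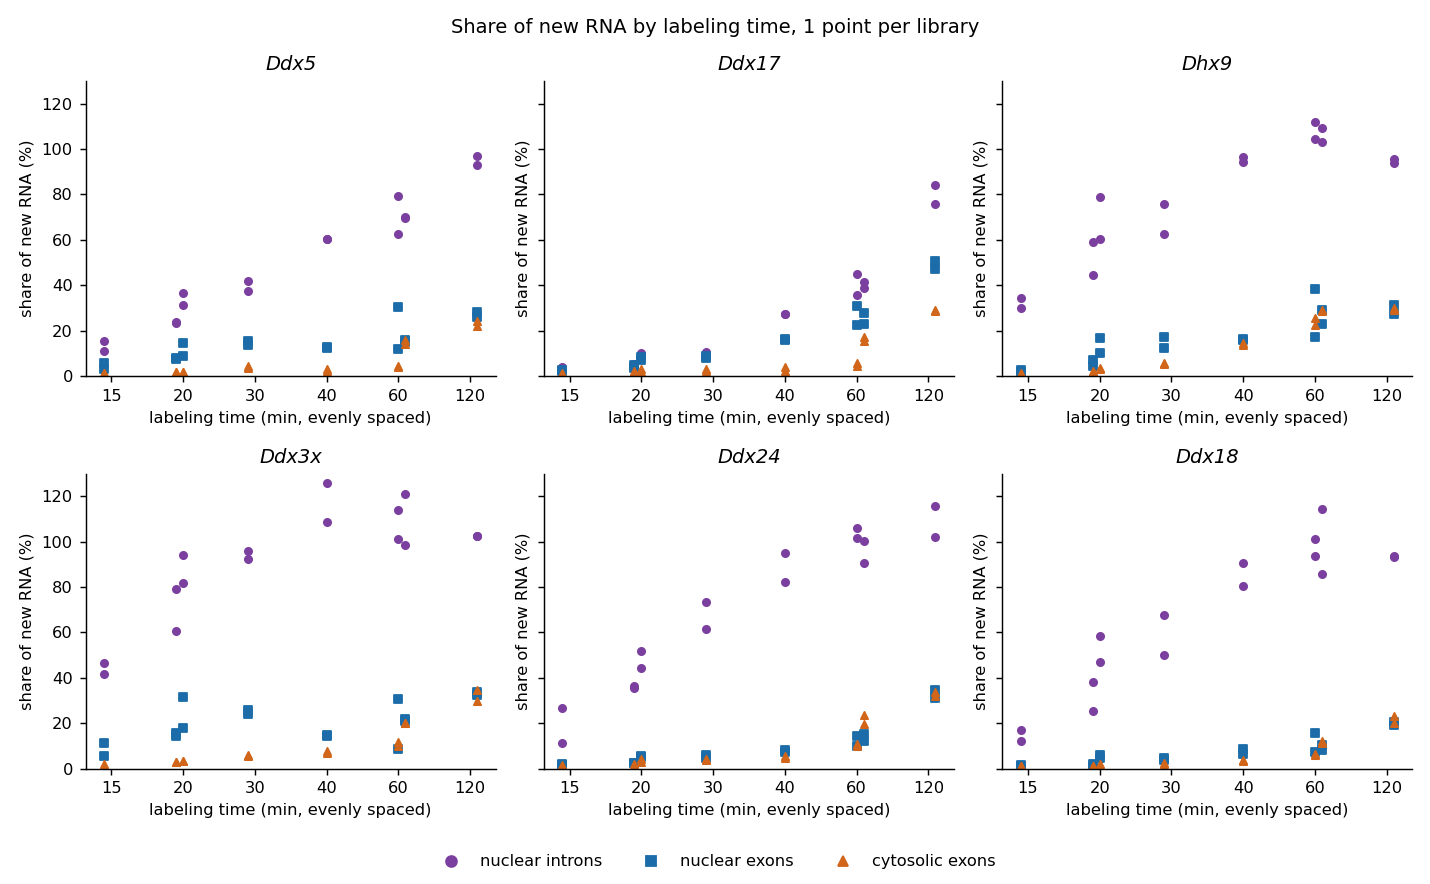
Share of new RNA (%) against labeling time (evenly spaced steps) for 6 helicase genes, in nuclear introns (circles), nuclear exons (squares) and cytosolic exons (triangles), with 1 point per library and replicate pairs set side by side within a time. Ddx17 introns rise slowly to 75.7% and 84.0% at 120 min, those of Ddx3x are at 92.2% and 95.7% at 30 min, and at 120 min Ddx24 has 31.1% and 34.6% in nuclear and 32.2% and 33.7% in cytosolic exons.

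The difference between nucleus and cytosol differed between replicate pairs. Within replicates 1 and 2 (15 to 30 min) 40 members were higher in the nucleus, beside 55.6% of all genes, within replicates 3 and 4 (20 to 60 min) 47, beside 77.7%, and within replicates 5 and 6 (60 and 120 min) 17, beside 21.5%. The medians of the members were 1.46, 2.12 and 0.36 in the order of the pairs, and those of all genes 1.07, 1.52 and 0.18. The test of the difference itself compared the first with the last pair. In this test, added after the data were seen, 31 members passed and all were lower in replicates 5 and 6, as were 42% of all genes, while 0.278% of genes were higher. Within replicates 5 and 6, 8 members were on the cytosolic side and none was called, namely Ddx24 (-0.31, edgeR adjusted p = 0.028, under the size threshold), Ddx28 (-0.24), Ddx18 (-0.23), Dhx8 (-0.08), Dhx9 (-0.08), Ddx59 (-0.05), Ddx21 (-0.01) and Dhx37 (-0.00207). The lead of introns over exons, described below, also differed between these pairs in 21 members, of which 20 were lower in replicates 5 and 6, as were 41.8% of all genes, and 1 was higher, as were 0.954%. The 11 members called in the main fit and every alternative were Dhx16, Ddx50, Ddx17, Ddx51, Dhx35, Ddx47, Ddx49, Ddx1, Ddx46, Ddx39 and Ddx41. How many of all genes were called in every fit was not counted.

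In the membrane fraction the share of new RNA was close to that of the cytosol. Of 49 members tested, Ddx17 (0.54 ± 0.10, edgeR adjusted p = 2.6e-05) and Dhx29 (0.54 ± 0.17, adjusted p = 0.017), which opens structured leader RNA at the small ribosomal subunit, were higher in the membrane fraction, as were 3.72% of 11864 genes. Ddx17 had 5.23% and 6.42% in membrane exons at 40 min against 2.40% and 3.77% in the cytosol, and 37.5% and 46.7% against 28.8% and 29.3% at 120 min, and it was higher in 12 of 16 cultures. Within the replicate pairs it had 0.25, 0.86 and 0.45. No member passed with a lower share in the membrane fraction, against 11.9% of genes, with the lowest at -0.34 ± 0.13 for Ddx47 and -0.21 ± 0.10 for Ddx18, the 2 that had an unadjusted p under 0.05, and limma called none in either direction. The call of Ddx17 was lost without replicate 3 or 4 (0.46 and 0.47), and that of Dhx29 without replicate 4 or 5 (0.31 and 0.54).

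In the nucleus, introns held a larger share of new RNA than exons, and least so in Ddx17. All 48 members with enough intron reads had a higher share of new RNA in nuclear introns than in nuclear exons, as had 96.6% of 10380 genes, with a median of 2.06 against 1.89 (log2). In 47 members introns lay above exons in 16 of 16 nuclear libraries, which was not counted over all genes. No member had a lower share in introns, at the thresholds or at an unadjusted p under 0.05 with edgeR, nor with limma, as 0.106% of genes had.

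Introns of Ddx3x had 41.5% and 46.7% new RNA at 15 min and 92.2% and 95.7% at 30 min. Those of Dhx9 had 29.8% and 34.2%, and 62.8% and 75.9%, and those of Ddx5 11.1% and 15.4%, and 37.5% and 42.0%. Introns of Ddx17 had 2.45% and 4.10% at 15 min, 9.59% and 10.4% at 30 min, 27.2% and 27.4% at 40 min and 75.7% and 84.0% at 120 min. The Ddx17 introns were ahead of its nuclear exons, which had 1.99% and 2.699% at 15 min and 15.7% and 16.4% at 40 min. The difference of 0.50 ± 0.10 (edgeR adjusted p = 7.2e-06) was the lowest of the family, at percentile 3.36 of all genes. At 20 min in replicates 3 and 4, when Ddx17 introns had 9.10% and 10.1%, the introns of Ddx21 had 86.6% and 88.8%, the median member 40.1% and the median gene 38.2%.

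Next to Ddx17 the lowest differences were those of Ddx55 (0.74 ± 0.14), Dhx33 (0.84 ± 0.11), Ddx20 (1.15 ± 0.11) and Ddx51 (1.19 ± 0.12). Ddx55, Dhx33 and Ddx20 were also the members, beside Ddx28, with the largest shares of new RNA in cytosolic exons at 120 min. The highest were Ddx10 (3.42 ± 0.16), Ddx18 (3.40 ± 0.16), Dhx29 (3.19 ± 0.17), Ddx24 (3.16 ± 0.15) and Ddx1 (2.85 ± 0.13). Ddx5 had 1.78 ± 0.12, Ddx6 2.04 ± 0.12, Ddx3x 2.22 ± 0.14, Ddx21 2.41 ± 0.13 and Dhx9 2.47 ± 0.16. All 16 ribosome biogenesis members passed, with values from 0.74 to 3.42, and all 9 spliceosomal members, from 1.53 to 2.71. Within the replicate pairs 47, 48 and 47 members passed (92.2%, 95.3% and 90.7% of all genes). In every fit 46 passed, which was not counted over all genes. The call of Ddx17 sat at the threshold of 0.5 and was kept in 8 of 13 alternatives, with its direction kept in all of them. Among the losses were the fits without replicate 4, 5 or 6 (0.48, 0.48 and 0.47). Within replicates 1 and 2 it had 0.32 (edgeR adjusted p = 0.054).

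How much intron sequence the polyadenylated RNA carried was measured as T positions in introns over T positions in exons, which depends on the intron and exon lengths of a gene and is compared here between fractions of the same gene. In Ddx17, introns held 18.8%, 61.8% and 94.3% of the exonic T count (lowest, median and highest of 16 libraries) in the nucleus, 6.25%, 19.4% and 34.2% in the cytosol, 3.92%, 28.1% and 54.7% in the membrane fraction and 15.99%, 46.9% and 92.0% in whole cells. The nucleus was highest and the cytosol lowest, with overlap between libraries. In Ddx5 the values were 16.2%, 36.01% and 49.9% in the nucleus, 1.82%, 10.7% and 21.2% in the cytosol, 3.53%, 9.95% and 19.4% in the membrane fraction and 7.56%, 20.8% and 43.0% in whole cells.

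Within replicate pairs the fractions of Ddx5 were apart. Nuclear libraries had 37.4% to 48.8%, 16.7% to 49.9% and 16.2% to 18.8% in pairs 1, 2 and 3, and cytosolic ones 14.2% to 21.2%, 1.82% to 6.16% and 8.42% to 12.5%, with no overlap within a pair. For Ddx17 the nuclear ranges were 58.8% to 77.8%, 23.5% to 94.3% and 18.8% to 35.9%, and the cytosolic ones 25.4% to 34.2%, 6.25% to 17.1% and 10.5% to 22.1%, with overlap in the last pair. The spread between pairs was shared with other genes, since the median over all genes ran from 20.9% to 81.1% between nuclear libraries and from 3.92% to 16.1% between cytosolic ones.

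All 49 members with intron reads had more intron per exon sequence in the nucleus than in the cytosol, as had 91.5% of 10901 genes, with a median of 2.41 against 2.18 (log2), and Ddx28 had no intron counts. No member had less, at the thresholds or at an unadjusted p under 0.05 with edgeR, nor with limma, as 0.569% of genes had. The differences of Ddx5 (1.61 ± 0.30, adjusted p = 5.6e-06) and Ddx17 (1.49 ± 0.24, adjusted p = 2.8e-07) were among the lower ones. The lowest were Ddx24 (0.83 ± 0.26), the G-quadruplex helicase Dhx36 (1.36 ± 0.37), the nonsense-mediated decay factor Dhx34 (1.38 ± 0.15), Dhx57 (1.47 ± 0.19) and Ddx55 (1.48 ± 0.29). The highest were Ddx41 (3.81 ± 0.23), Ddx47 (3.64 ± 0.35), Dhx38 (3.54 ± 0.32), Ddx49 (3.48 ± 0.26) and Ddx25 (3.37 ± 0.59). In Ddx41 introns held 15.9%, 43.2% and 63.3% of the exonic T count in the nucleus and 1.33%, 2.80% and 5.24% in the cytosol, without overlap. Dhx9, Ddx6, Ddx21 and Ddx3x had 1.98 ± 0.26, 2.28 ± 0.30, 2.51 ± 0.32 and 2.74 ± 0.31.

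Compared with 9837 genes of enough intron depth, Ddx17 stood at percentile 61.45 in the nucleus, 74.1 in the cytosol and 83.7 in the membrane fraction, whereas Ddx5 stood at 37.15, 52.4 and 50.3. Ddx3x was at percentile 0.77 in the nucleus. The median member had 30.1% in the nucleus and 4.44% in the cytosol, and the median gene 43.3% and 9.95%. Within the replicate pairs 49, 49 and 47 members passed (86.7%, 91.9% and 73.97% of all genes), with medians of 2.08, 3.33 and 1.49, beside 1.81, 3.18 and 1.35 over all genes. The genes Mir3064 and Gm25994 overlap Ddx5 on the same strand, and how their reads entered its intron counts was not tested.

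**Figure D4:**
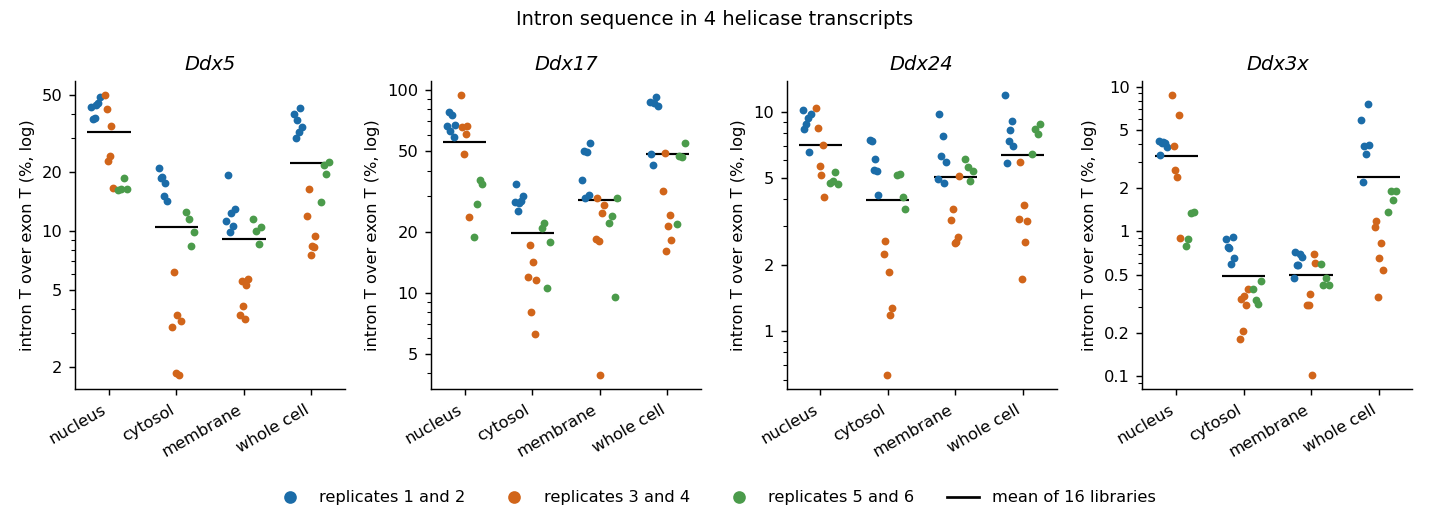
T positions in introns as a percent of T positions in exons (log axis) for Ddx5, Ddx17, Ddx24 and Ddx3x in 4 fractions, with 1 point per library colored by replicate pair and a line at the mean of 16 libraries. Means of Ddx5 and Ddx17 are 32.2% and 55.2% in the nucleus and 10.5% and 19.6% in the cytosol, and Ddx24 shows the smallest step between these fractions.

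New RNA did not fill long members evenly. For the 6 members of more than 50 kb, exons were split at the middle of the gene, a description chosen after the data were seen, and the 2 parts were compared within each library with a two-sided exact paired permutation test, adjusted over 12 comparisons. In nuclear exons of Ddx10, which spans 149 kb, the 5′ part had 0.83% and 1.75% new RNA at 30 min and the 3′ part 10.2% and 10.5%. At 60 min in replicates 5 and 6 the values were 3.38% and 3.79% against 13.5% and 16.9%. The 3′ part was higher in 15 of 16 nuclear libraries, by 7.53 ± 3.63 percentage points (SD, permutation adjusted p = 0.00015).

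Dhx35, Ddx31 and Dhx32 showed the same order in 16 of 16 nuclear libraries, with mean differences of 12.7 ± 10.1, 13.9 ± 9.75 and 7.15 ± 5.11 percentage points (SD, permutation adjusted p = 9.2e-05 each, the smallest that these permutations gave). In Ddx31 the 5′ part had 1.72% and 2.03% at 40 min and the 3′ part 27.2% and 29.7%. Ddx4 had a higher 3′ part in 14 of 16 libraries by 3.38 ± 10.8 points (permutation adjusted p = 0.29), on as few as 84 T positions. Dhx57, of 52.2 kb, went the other way at 30 min, with 9.48% and 10.3% in the 5′ part and 1.75% and 2.59% in the 3′ part, and over all 16 libraries the 3′ part was higher in 5 (-0.32 ± 5.25 points, permutation adjusted p = 0.88). In the cytosol the 3′ part was higher in 16 of 16 libraries for Ddx10 (4.30 ± 3.41 points) and in 15, 12, 12, 11 and 9 for Dhx35, Dhx32, Ddx31, Ddx4 and Dhx57.

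**Figure D5:**
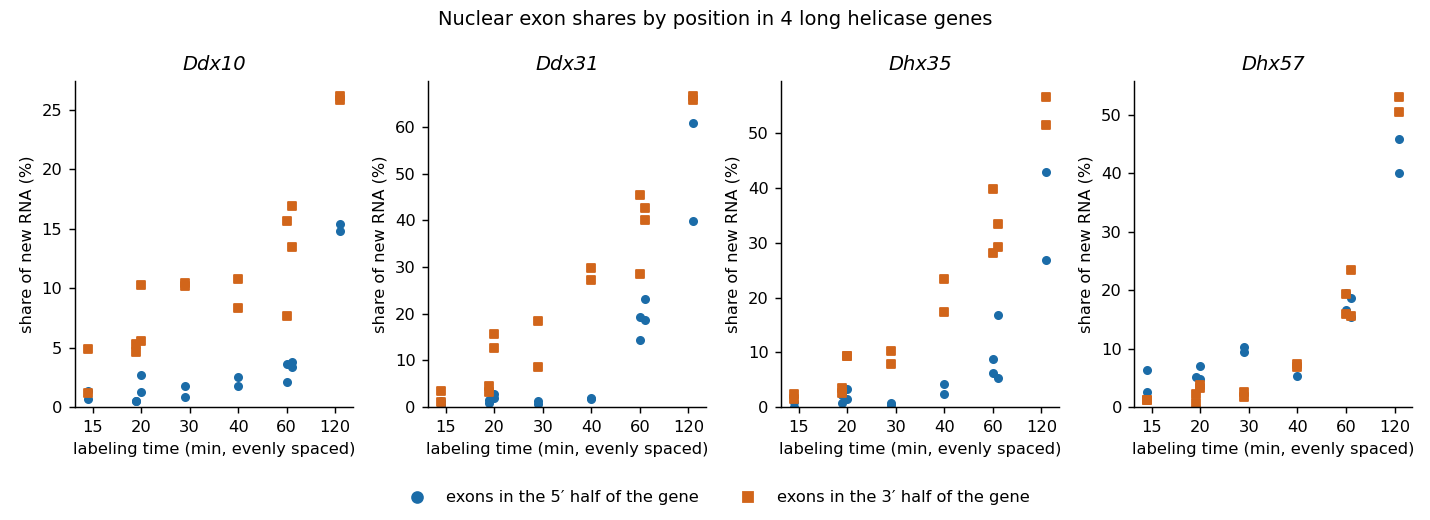
Share of new RNA (%) in nuclear exons of the 5′ part (circles) and the 3′ part (squares) of 4 long helicase genes against labeling time (evenly spaced steps), with 1 point per library and a separate vertical scale for each gene. The 3′ part leads in Ddx10, Ddx31 and Dhx35, whereas in Dhx57 the 5′ part leads at 30 min and the 3′ part at 120 min.

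Helicases of RNA outside the 2 families were read from a list of 15 genes. Their levels were higher in the nucleus for 9 (42.5% of all genes were) and in the cytosol for 2 (21.2%). These 2 were the translation initiation factor Eif4a1 (-0.68 ± 0.16) and the exon junction factor Eif4a3 (-0.66 ± 0.15). The share of new RNA was higher in nuclear than in cytosolic exons for 14 of 15 (76.3% of all genes), with Ascc3 (0.48 ± 0.23) below the threshold. It was higher in introns than in exons for 15 of 15 (96.6% of all genes). More intron per exon sequence in the nucleus than in the cytosol was found for 15 of 15 (91.5% of all genes). Against the cytosol, 3 had a lower level in the membrane fraction (12.9% of all genes), and the differences in the share of new RNA ran from -0.23 to 0.50 without a call. Eif4a2 had the lowest difference between introns and exons (0.62 ± 0.09), near that of Ddx17, and the highest nuclear level difference of the list (1.66 ± 0.18).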

How the data were processed

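SLAM-seq libraries of E14TG2a cells were read as deposited by the authors. Per the submitters' processing notes, reads were aligned with STAR 2.7.6 to mm10 and counted with HTSeq 0.11.1, and RSEM 1.3.3 was used as well. The deposited values are raw read counts per gene, in which reads that map to several places are left out, and T and T2C counts on exons and introns, from which the authors excluded positions called as variants. The authors also deposited the share of new RNA as a fraction, the ratio of T2C to T over the conversion rate of the library, and this ratio was recomputed here to within 1.2e-13. No background was subtracted. The 5 rows that name no gene held 30.4% to 48.8% of counts and were left out. Libraries with other labeling times or without label were not analysed here.

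Differences in level were tested with edgeR 4.0.16 (quasi-likelihood, TMM factors, filterByExpr) over 64 libraries with fraction as the term. Differences in the share of new RNA were tested with edgeR on T2C counts, with the expected converted T count as offset and labeling condition as covariate, for genes whose T count reached 400 in each library. Intron per exon sequence was tested on intron T counts with exon T counts as offset, for genes with a mean of at least 100 intron T counts in nuclear libraries. Calls needed a Benjamini-Hochberg adjusted p under 0.05 over all genes tested and a log2 difference above 0.5 in size. The SE is that of the log2 difference. RPKM were computed here from counts and annotated exon length, and were used for levels only. Libraries held 13185351 to 52975732 reads on genes, and intervals cover the spread between libraries.

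The 6 replicates were separate cultures, but libraries of 1 replicate at several times are not fully independent, so that p-values measure the spread between libraries. The 4 fractions of a culture deviated together, with mean correlations of 0.323 to 0.592 in all 16 cultures, and the culture as a block was an alternative. Other alternatives were DESeq2 1.42.0, limma 3.58.1, upper-quartile factors, other minimum counts, all 72 libraries, sums per replicate, each replicate left out and each replicate pair alone. On simulated data edgeR recovered 200 of 200 changed genes for levels (13679 genes, 0 false calls) and 191 of 200 for shares (11865 genes, 4 false calls), at a log2 size of 1. The simulated counts were independent between libraries, had the same dispersion in all genes and held no shared deviation of a culture. They therefore do not show how many false calls the real libraries gave.

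Named were Ddx5, Ddx17, Dhx9, Ddx3x, Ddx6 and Ddx21 and the 5 highest and 5 lowest members of each comparison. Members named for their order in whole cells, their role, their share at 120 min, their calls across alternatives or their length were chosen after their values were seen. The members, the role groups and the list of 15 other RNA helicases were chosen with earlier results of these data known. Sequences came from GRCm38 with Gencode transcripts. Motifs were searched by name in frame on the coding strand of 1 transcript per gene. Gene names of 51633 of 51826 identifiers (99.6%) were matched. Values were computed with R 4.3.3, Python 3.11.15, numpy 2.4.6, pandas 2.3.3 and scipy 1.17.1, and figures were drawn with matplotlib 3.10.9.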

Additional observations from a re-analysis of the deposited data

Results flagged for a closer look

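The difference in the share of new RNA between nuclear and cytosolic exons was itself different between replicates 5 and 6 (60 and 120 min) and replicates 1 and 2 (15 to 30 min) for 8 named members, each by edgeR's interaction test. The change in log2 difference was -2.284 for Ddx3x, which had 2.35 in the first pair and 0.07 in the last. It was -1.781 for Ddx5 (1.91 and 0.13), -1.594 for Ddx21 (1.59 and -0.01) and -1.448 for the spliceosomal Ddx46. Dhx9 had -1.444, Ddx6 -1.145, the export factor Ddx39 -1.018 and Ddx24 -0.7515. For Ddx17 the change of -0.58 did not pass (edgeR adjusted p = 0.09). Over all 11865 genes 42% were lower in the last pair, and 31 of 50 members were. Labeling time and replicate pair cannot be told apart in this test, because these pairs share no labeling time. At 60 min, the median member had 22.86% new RNA in nuclear exons in replicates 3 and 4, and 21.08% in replicates 5 and 6. In cytosolic exons it had 6.275% and 15.3%, and the median gene 9.46% and 19.49%. The gap thus differed between replicate pairs at the same labeling time. Conversion rates differed between them as well, and the parts of pair and dose were not tested. For 60 min samples at the higher and the lower dose, the paper describes similar shares of new mRNA despite different conversion rates. The nuclear medians above were close between the pairs, whereas the cytosolic ones were not.

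The lead of introns over exons in the nucleus differed in the same way for 5 named members. The change was -1.431 for Ddx24, which had 3.69 in the first pair and 2.26 in the last, -1.349 for Dhx29, -1.204 for Dhx9, -1.07 for Ddx18 and -1.022 for Ddx10. Of 48 members 20 were lower and 1 higher in the last pair, against 41.8% and 0.954% of 10380 genes.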

How the results depend on the processing

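Of 1227 values of single genes under the alternatives, 1149 kept their side of the threshold, 69 lost and 4 gained a call, and 5 with a call in either fit turned direction. Values with no call in either fit could change sign without being counted as turned, as did Ddx24 (0.26 to -0.31 in its share of new RNA within replicates 5 and 6) and Ddx5 (0.30 to as low as -0.07 in its level between nucleus and cytosol). Ddx3x turned to -0.64 in its level between nucleus and cytosol within replicates 3 and 4, and the share of new RNA between nuclear and cytosolic exons turned to -0.0815 for Dhx9, -0.00621 for Ddx21, -0.23 for Ddx18 and -0.0525 for Ddx59 within replicates 5 and 6. The number of members with a higher level in the nucleus (16) was 4 with counts summed to 6 per fraction, 6 with all 72 libraries, 10 without a filter, 7 with upper-quartile factors, 7 within replicates 1 and 2, 5 within replicates 5 and 6, and 6 to 17 without 1 replicate. In the same order, 30.9%, 35.35%, 28.55%, 36.2%, 33.6%, 30.6% and 33.8% to 42.9% of all genes were. The number higher in the cytosol (11) was 5 to 15 without 1 replicate, beside 18.6% to 30.9% of all genes. The single member higher in the membrane fraction was lost (0) with summed counts, without a filter, with upper-quartile factors and in pairs 1 and 3 of replicates alone, 2 members passed within replicates 3 and 4, and 0 to 1 without 1 replicate. Of all genes, 14.1% to 26.4% were higher in the membrane fraction in these fits. The 15 members higher in the cytosol than in the membrane fraction were 39 with upper-quartile factors, 33 within replicates 5 and 6 and 13 to 24 without 1 replicate. Of all genes, 38.95%, 27.8% and 11.4% to 26.2% were, in the same order. For the share of new RNA, 17 of 48 members passed in the nucleus within replicates 5 and 6, and 0 of 2 in the membrane fraction with limma and in pairs 1 and 3 alone, with 0 to 2 without 1 replicate. With the replicate block (culture) 15 and 9 members were called between nucleus and cytosol (43.1% and 21.5% of all genes). The share counts were 47 and 2 (74.9% and 3.27%) and the intron counts 48 and 49 (96.5% and 91.0%). The named calls of Ddx4 (level) and Ddx18 (share of new RNA) were lost with this block. The cause of these changes was not tested. Low counts limit Dhx58, Ddx25 and Ddx4, whose shares rest on few conversions.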
